A study of Mus musculus with 28 samples.

Results

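The genes described here are 9 liver genes of the mouse that are grouped as dependent on pulsatile growth hormone: Hsd3b5, Slco1a1, Cyp2d9, Cyp4a12a, Elovl3, Serpina12, Obp2a, Nudt7 and Ugt2b1. They were chosen by their deep fall with ethanol in CAR deficient liver, so that contrast is given below as a description with no test. They are named by 14 of 45037 probe sets, and are 9 of 18193 genes that a probe set names alone. Each gene is represented by its lead probe set, the one of highest mean over all 28 arrays.

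Liver RNA of C3H/HeN mice was hybridised to Affymetrix arrays, which carry several short probes for each transcript (a probe set), with 1 mouse per array. Wild-type (WT) mice gave 16 arrays, 4 for each of 4 diets, and CAR deficient mice of the same background gave 12 arrays, 3 per diet. CAR, the product of Nr1i3, is a nuclear receptor that switches on enzymes of drug metabolism. All mice were 5 weeks old at the start and, after 1 week of acclimation, received an isocaloric liquid diet, freely for 1 week and then at 12 g per day for 4 weeks. The control diet held water and the EtOH diet held ethanol. The other diets held ethanol with ellagic acid (EA) or with trans-resveratrol (RSV), polyphenols taken at about 50 mg per kg body weight per day. By the paper's formula, the diets with ethanol also held less maltose and dextrin than the control diet. In differences from control, ethanol and this cut in carbohydrate cannot be told apart. The study asked how the polyphenols act on alcoholic fatty liver and whether CAR is needed. The values are log2 levels made by Distribution Free Weighting (DFW), which rescales each probe set, so a difference is not a calibrated fold change, and levels are not compared between the genotypes, which were summarised apart.

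In rodents, growth hormone leaves the pituitary in separated pulses in males and more evenly in females. Each pulse activates the kinase JAK2 and the transcription factor STAT5B in hepatocytes, and a set of male-biased liver genes needs this rhythm. Where the pulses are lost, such genes fall and genes typical of female liver rise. Growth hormone itself was not measured here, so the name of the group was not tested.

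The labels call every mouse female. The levels of Xist and of an Eif2s3y probe set went against this. Most of these probe sets hardly vary under DFW, so a level says little about any single array. Xist, the RNA of the inactive X chromosome, was flat on its 3 probe sets, between 5.98 and 6.47 in WT and between 5.93 and 6.68 in CAR deficient liver, no higher than percentile 39.6 of an array. The Y-linked gene Eif2s3y (1417210_at) stood at 9.17 on the WT arrays and between 9.41 and 10.01 on the CAR deficient arrays, at percentiles 90.0 to 93.1, while its other probe set stood at 6.02 and 5.92. Other Y-linked genes, Kdm5d and Uty, lay between 6.15 and 7.87. On the control arrays 8 of the 9 lead probe sets stood at percentile 93.8 of their array or above, and Obp2a between percentiles 28.2 and 68.8. The choice by a deep fall in CAR deficient liver favours genes that are high on its control arrays. These percentiles therefore do not check the sex. No array of the other sex was analysed, so no direct comparison could be made.

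Nr1i3 was measured by 1 probe set (1425392_a_at), at 8.96 to 10.1 in WT and 8.55 to 9.49 in CAR deficient liver. Where its probes lie relative to the deletion is not given in the sources used here, so it does not check the genotype. Hepatocyte markers (7 genes measured) had a mean level of 13.54 to 13.83 on the WT arrays and 15.92 to 16.59 on the CAR deficient arrays, with Alb alone at 14.55 and 27.23 on the respective control arrays. Cholangiocyte markers (5 genes) had a mean level of 6.53 and 6.60, below the array medians of 6.69 to 6.70 and 6.88 to 6.89. A pair of CAR deficient arrays stood apart from their groups. The mean Pearson's r with the own group over all probe sets was 0.9844 for EtOH replicate 1, against 0.9898 and 0.9902 for its group mates, and 0.989 for RSV replicate 3, against 0.9924 and 0.9929. Counts of the 9 genes that use the EtOH arrays, the count of female-biased genes and the pair correlations are also given without the array concerned. This choice was made after the values were seen. Other counts of CAR deficient liver keep both arrays.

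The promoters of Hsd3b5, the gene of largest difference, and of Ugt2b1, the gene that was higher than control in WT liver with EA and with RSV, are printed to show the DNA before their starts, and were picked after the values were seen. Both are 250 bases long, from RefSeq (GRCm38.p6), 5′ to 3′ on the minus strand, at chr3:98645535-98645784 and chr5:86926504-86926753. Capitals mark ATCAAT, a core of the HNF6 site.
Hsd3b5: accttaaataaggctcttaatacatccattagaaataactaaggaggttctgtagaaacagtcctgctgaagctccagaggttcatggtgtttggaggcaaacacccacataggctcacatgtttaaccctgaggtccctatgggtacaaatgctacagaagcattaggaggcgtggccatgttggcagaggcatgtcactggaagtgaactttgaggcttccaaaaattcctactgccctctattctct
Ugt2b1: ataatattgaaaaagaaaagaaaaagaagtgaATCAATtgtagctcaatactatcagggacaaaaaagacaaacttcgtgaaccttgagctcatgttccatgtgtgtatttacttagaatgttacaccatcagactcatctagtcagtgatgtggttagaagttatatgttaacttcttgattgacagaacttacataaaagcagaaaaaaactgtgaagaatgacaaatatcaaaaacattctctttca
Windows were found for 7 of the 9 genes, and 10 patterns were searched on both strands after the values were seen. The STAT5 pattern TTCNNNGAA was in 0 of the 7 and in 7.02% of 32851 mouse windows of this length. ATCAAT or its reverse complement ATTGAT was in Ugt2b1 alone, 218 bases before the start, and in 6.72% of all windows. A CCAAT box (CCAAT or ATTGG, 33.8% of windows) and a C/EBP pattern (TTGCNNAA or TTNNGCAA, 9.56%) were in Serpina12, and TATAAA (7.59%, searched as written) was in Obp2a. The other 5 patterns were in 0 of the 7: a tighter STAT form contained in the first (TTCCNNGAA or TTCNNGGAA, 4.06%), HNF4 (TGGACTTNG or CNAAGTCCA, 0.901%), its exact form (CAAAGTCCA or TGGACTTTG, 0.384%), HNF3 (TGTTTAC or GTAAACA, 3.17%) and HNF1 (0.0609%). A match is a run of letters, not a measured site.

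In WT liver, 4 of the 9 genes fell with ethanol: Hsd3b5, Slco1a1, Serpina12 and Obp2a. None rose, and Cyp2d9, Cyp4a12a, Elovl3, Nudt7 and Ugt2b1 did not pass the test (limma, Benjamini-Hochberg adjusted p under 0.05 over all probe sets). Of all probe sets, 3.35% were lower and 2.2% higher by this rule, and after quantile normalization of the arrays 11768 were higher and 3466 lower, in place of 991 and 1510. The median difference over the 9 genes was -0.60. Over all probe sets, most of which hardly vary under DFW, it was 1.97e-05, which is no measure of genes that vary. The rank product called 6 lower, the same 4 genes with Cyp2d9 and Elovl3, and 1 higher, Ugt2b1. Over all 45037 probe sets it called 1458 lower and 1053 higher. In a fit of only the control and EtOH arrays, Slco1a1 (limma adjusted p = 0.0633) and Obp2a (adjusted p = 0.0686) no longer passed. In tissue RNA, fewer cells of a type and less RNA per cell cannot be told apart.

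**Figure D1:**
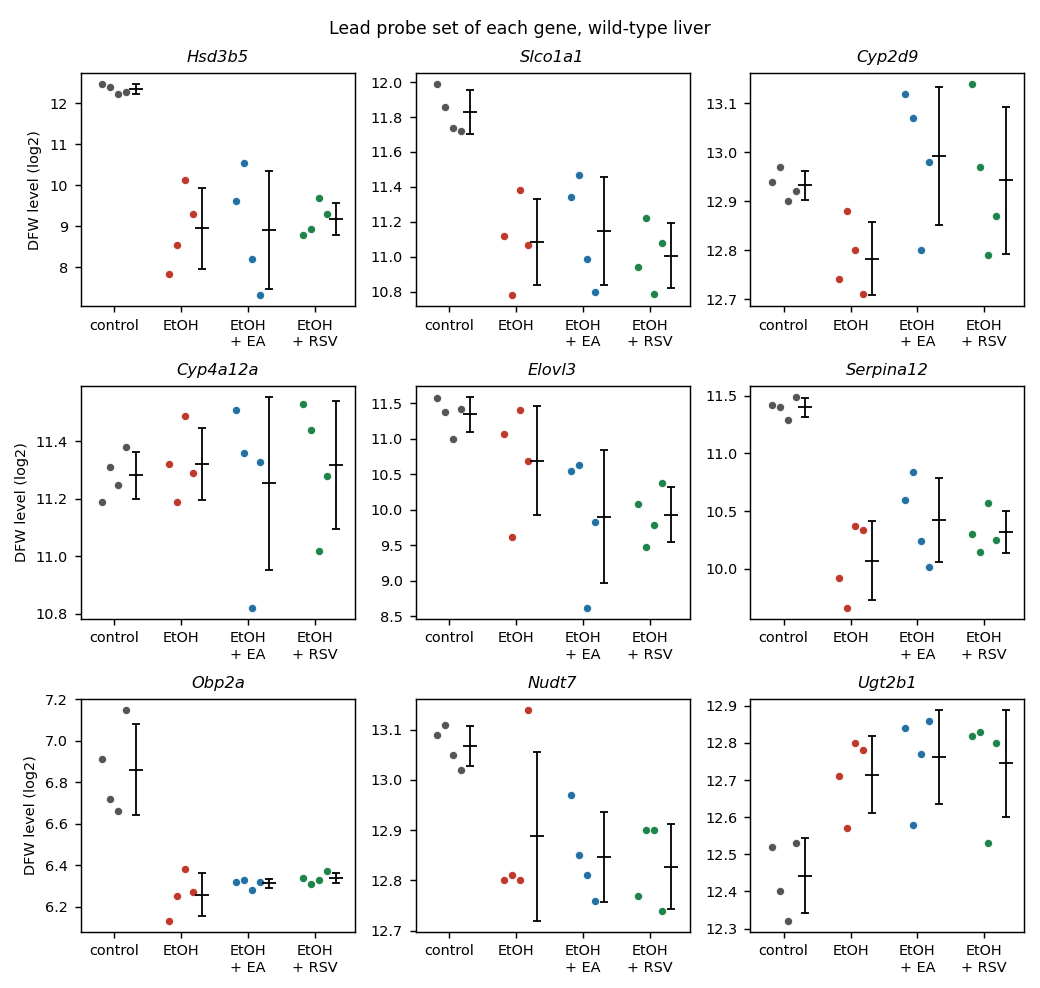
DFW log2 level (vertical axis, a separate range for each gene) of the lead probe set of each gene on every WT array (points, 4 per diet), with the mean and SD in black. Hsd3b5 falls from 12.35 on the control diet to 8.96 on the EtOH diet, while Cyp4a12a stays between 10.82 and 11.53 on all 16 arrays.

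Hsd3b5, a hydroxysteroid dehydrogenase of male liver, had the largest difference of the 9 genes. Its levels were 12.48, 12.41, 12.23 and 12.29 on the control arrays and 7.83, 8.55, 10.13 and 9.31 on the EtOH arrays. The groups lay apart, and the EtOH arrays spread far more (SD 0.99 against 0.11, n = 4). The difference was -3.40 (SE 0.62, 95% interval -4.75 to -2.05, limma adjusted p = 0.0103), and it passed in each of the 8 fits that left out 1 array. Cyp2d9, a cytochrome P450 that hydroxylates testosterone, lay between 12.90 and 12.97 on control and between 12.71 and 12.88 on EtOH. These ranges do not overlap, yet the difference of -0.15 (SE 0.08, limma adjusted p = 0.276) did not pass. Cyp4a12a, a P450 that hydroxylates arachidonic acid, read 11.19, 11.31, 11.25 and 11.38 on control and 11.32, 11.19, 11.49 and 11.29 on EtOH. Here the arrays were intermingled, with a difference of 0.04 and a 95% interval from -0.26 to 0.35 (limma adjusted p = 0.896).

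Slco1a1, an uptake carrier for organic anions at the sinusoidal membrane, had control levels of 11.99, 11.86, 11.74 and 11.72 and EtOH levels of 11.12, 10.78, 11.38 and 11.07. Every EtOH array was below every control array. The difference was -0.74 (SE 0.16, limma adjusted p = 0.0205) and -0.77 on its second probe set, 1449844_at (adjusted p = 0.0168). Without control replicate 2 the lead probe set no longer passed.

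Both secreted proteins among the 9 fell. Serpina12 (vaspin), a serine protease inhibitor known as an adipokine, read 11.42, 11.40, 11.29 and 11.49 on control and 9.92, 9.66, 10.37 and 10.34 on EtOH, a difference of -1.33 (SE 0.19, limma adjusted p = 0.00294). Its other probe set, 1421091_at, differed by -0.79 (adjusted p = 0.00714). Obp2a, a lipocalin named for binding odorants, read 6.91, 6.72, 6.66 and 7.15 on control and 6.13, 6.25, 6.38 and 6.27 on EtOH, a difference of -0.60 (SE 0.09, limma adjusted p = 0.00286). For both genes the EtOH arrays lay below all control arrays and the call held in each of the 8 fits without 1 array. The Obp2a levels are low, though. They stood at percentiles 48.0 to 67.8 on the control arrays, and on EtOH they lay below the array medians of 6.69 to 6.70.

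Elovl3, which elongates very long chain fatty acids, ranged from 10.99 to 11.58 on control and from 9.62 to 11.40 on EtOH. The overlap was wide and the difference of -0.65 (SE 0.45, limma adjusted p = 0.438) did not pass. Nudt7, a peroxisomal hydrolase of coenzyme A, depended on the probe set. On the lead one 3 EtOH arrays lay at 12.80 to 12.81, below the control range of 13.02 to 13.11, and EtOH replicate 5 lay above it at 13.14. The difference was -0.18 (adjusted p = 0.182), and of the 8 fits without 1 array it passed only in the one without EtOH replicate 5. Probe sets 1427513_at and 1430896_s_at were lower, by -0.55 (adjusted p = 0.0155) and -0.24 (adjusted p = 0.034), and the fourth, 1453685_at, stood at 7.38 on every WT array. Counting any probe set, 5 of the 9 genes were lower, a looser rule for which the share over all genes was not computed.

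Ugt2b1, a glucuronosyltransferase that conjugates steroids and drugs for excretion, pointed the other way. Its levels were 12.52, 12.40, 12.32 and 12.53 on control and 12.71, 12.57, 12.80 and 12.78 on EtOH, with every EtOH array above every control array. The difference of 0.27 (SE 0.08, limma adjusted p = 0.0849) did not pass.

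With EA or RSV added to ethanol, the 4 genes that had fallen in WT liver were also lower than control. With EA 4 genes were lower than control, Hsd3b5, Slco1a1, Serpina12 and Obp2a, and 1, Ugt2b1, was higher. Of all probe sets 8.15% were lower and 6.06% higher. With RSV 6 genes were lower, these 4 with Elovl3 and Nudt7, and Ugt2b1 was higher, while 10.7% of probe sets were lower and 9.07% higher. Both comparisons share the control arrays with the ethanol comparison. With the replicate number as a block in the fit of all 16 WT arrays, 6 genes were lower with EA. Elovl3 (limma adjusted p = 0.0296) and Nudt7 (adjusted p = 0.0111) then passed too. The labels do not say that these numbers pair the mice, which was inferred from correlations for EA and control only. After quantile normalization the probe sets higher and lower numbered 14693 and 9495 with EA, in place of 2729 and 3669, and 17263 and 7736 with RSV, in place of 4084 and 4801.

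**Figure D2:**
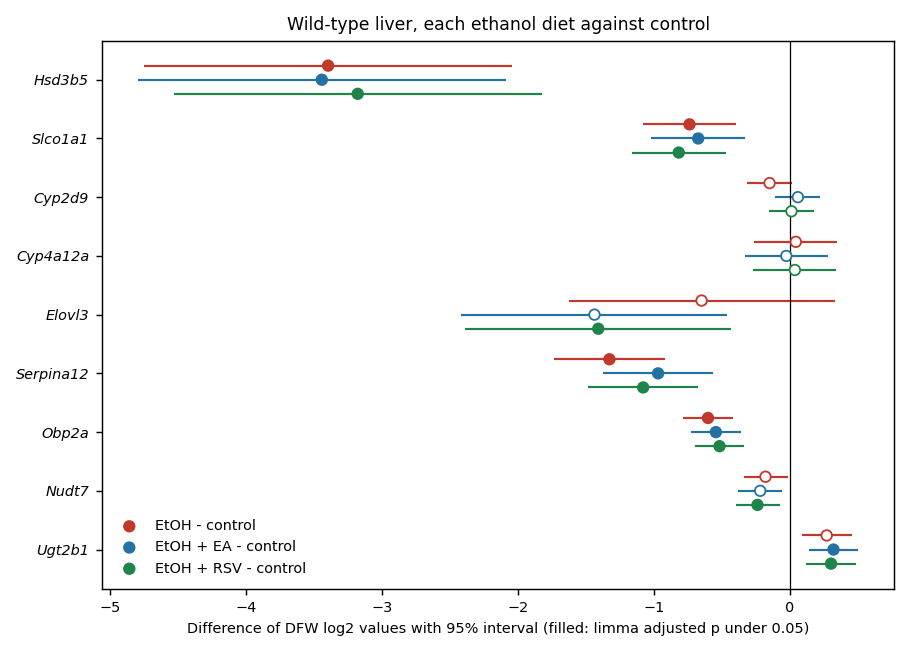
Difference of DFW log2 levels (horizontal axis) of the EtOH, EtOH + EA and EtOH + RSV diets from control in WT liver, with 95% limma intervals, for the lead probe set of each gene. Filled points passed the adjusted p threshold, open points did not. Hsd3b5 differs by -3.40, -3.44 and -3.18, and Ugt2b1 lies to the right of 0 for each diet.

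Hsd3b5 read 9.61, 10.54, 8.19 and 7.31 with EA and 8.79, 8.94, 9.68 and 9.30 with RSV. All 8 arrays stood below the control arrays, with differences of -3.44 and -3.18 (limma adjusted p = 0.00342 and 0.00499). Slco1a1 was lower by -0.68 and -0.82 (limma adjusted p = 0.0141 and 0.00474), Serpina12 by -0.97 and -1.08 (adjusted p = 0.00487 and 0.00257), and Obp2a by -0.55 and -0.52 (adjusted p = 0.00142 and 0.00186). These 4 genes passed in every fit that left out 1 array, for both diets.

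Elovl3 read 10.54, 10.63, 8.61 and 9.83 with EA and 10.08, 9.47, 9.79 and 10.38 with RSV, against a lowest control array of 10.99. Its differences were -1.44 (SE 0.45, limma adjusted p = 0.0513) and -1.41 (adjusted p = 0.045). The RSV call was lost in 7 of 8 fits without 1 array, all but the one without RSV replicate 4. The lead probe set of Nudt7 was lower with RSV by -0.24 (limma adjusted p = 0.0404), a call that was kept only without RSV replicate 3, and by -0.22 with EA (adjusted p = 0.0679). Cyp2d9 differed by 0.06 and 0.01 and Cyp4a12a by -0.03 and 0.04, none of which passed, and their sign changed with 1 array left out except for Cyp2d9 with EA.

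Ugt2b1 read 12.84, 12.58, 12.77 and 12.86 with EA, above all control arrays, and 12.82, 12.83, 12.53 and 12.80 with RSV, where replicate 3 fell among them. The differences were 0.32 (SE 0.08, limma adjusted p = 0.025) and 0.30 (adjusted p = 0.0269). Each call was kept in 3 of 8 fits. The EA call was lost without EA replicates 1, 3 or 4 and without control replicates 2 or 3, and the RSV call without RSV replicates 1, 2 or 4 and the same control arrays.

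Against the EtOH diet itself, no polyphenol effect on the 9 genes passed the test. With EA 0 of 9 differed by limma (2.37% of all probe sets did), and 1, Cyp2d9, had an unadjusted p under 0.05 (difference 0.21, SE 0.08, adjusted p = 0.195). With RSV 0 of 9 differed (0.364% of all probe sets), also at an unadjusted p under 0.05. Between EA and RSV 0 of 9 differed (0.0244% of all probe sets), and 0 had an unadjusted p under 0.05. The rank product called 2 lower and 3 higher with EA, 1 and 1 with RSV, and 1 and 2 between them, and placed Hsd3b5 in both directions for EA against EtOH and for EA against RSV. Over all probe sets it called 1393 lower and 1126 higher with EA, 1091 and 871 with RSV, and 670 and 822 between them. For all 9 genes the 95% interval of each of these differences spanned 0, other than Cyp2d9 with EA. They were widest for Hsd3b5, from -1.62 to 1.09 between EA and RSV, and the interval for Obp2a there ran from -0.21 to 0.16. A difference of these sizes is therefore not shown to be absent.

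In CAR deficient liver all 9 genes stood lower on each EtOH array than on each control array, also without EtOH replicate 1, and their fall in this contrast is how they were chosen. The same held for 9.76% of all probe sets in this direction. The differences of the lead probe sets ranged from -0.44 for Ugt2b1 to -5.61 for Hsd3b5.

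**Figure D3:**
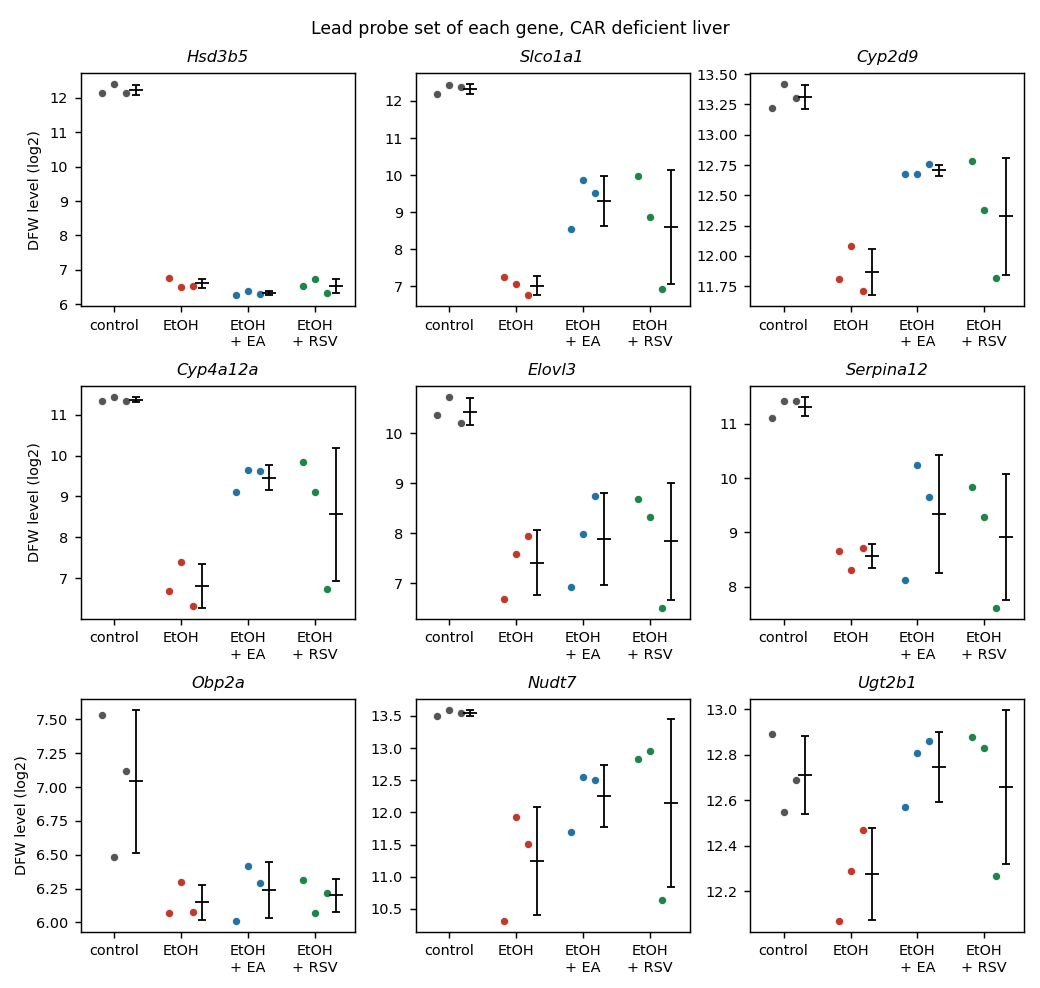
DFW log2 level (vertical axis, a separate range for each gene) of the lead probe set of each gene on every CAR deficient array (points, 3 per diet), with the mean and SD in black. Hsd3b5 stays between 6.27 and 6.77 on all 9 arrays with ethanol, while Slco1a1 and Cyp4a12a lie higher with EA, and RSV replicate 3 sits beside the EtOH arrays.

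Hsd3b5 read 12.14, 12.40 and 12.12 on control and 6.77, 6.51 and 6.54 on EtOH, which is below the median of all probe sets. It read 6.27, 6.39 and 6.31 with EA and 6.52, 6.73 and 6.32 with RSV. All 9 arrays with ethanol were low and close together. Both cytochromes P450 among the 9, which did not pass with ethanol in WT liver, were low here. Cyp4a12a read 11.33, 11.44 and 11.34 on control and 6.70, 7.39 and 6.33 on EtOH, a difference of -4.56. Cyp2d9 read 13.22, 13.42 and 13.30 on control and 11.81, 12.08 and 11.71 on EtOH, a difference of -1.45. Whether the ethanol effect differs between the genotypes was not tested, since the CAR deficient side chose the genes.

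Slco1a1 read 12.18, 12.43 and 12.38 on control and 7.25, 7.06 and 6.76 on EtOH, a difference of -5.31. The other genes differed by -3.03 (Elovl3), -2.76 (Serpina12), -2.30 (Nudt7) and -0.90 (Obp2a). The second probe set of Serpina12 stood at 6.33 to 6.34 on every CAR deficient array. All 4 probe sets of Nudt7 were lower on EtOH without overlap. Ugt2b1 read 12.89, 12.55 and 12.69 on control and 12.07, 12.29 and 12.47 on EtOH.

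With EA the CAR deficient levels of 4 genes stood above all EtOH arrays, which 6.91% of all probe sets did, and 4 also without EtOH replicate 1. Since the EtOH arrays chose the genes for being low, no test is given. Slco1a1 read 8.55, 9.86 and 9.51 with EA, 2.29 above EtOH. Cyp4a12a read 9.10, 9.65 and 9.63, 2.65 above, and Cyp2d9 read 12.68, 12.68 and 12.76, 0.84 above. Ugt2b1 read 12.57, 12.81 and 12.86, within the control range. Hsd3b5 alone was lower on every EA array than on every EtOH array, by 0.28 (difference -0.28). Against control, 8 of the 9 genes were lower without overlap with EA and 8 with RSV (11.1% and 8.48% of all probe sets), the exception being Ugt2b1 for both.

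With RSV 0 of the 9 genes stood above all EtOH arrays (3.9% of all probe sets did), and 0 without EtOH replicate 1, and this rested on 1 RSV array. RSV replicate 3 was the lowest of its group for 8 genes, all but Obp2a, and lay within the EtOH range for 6 and below it for 3, Hsd3b5, Elovl3 and Serpina12. Slco1a1 read 9.99, 8.88 and 6.94 with RSV, and Cyp4a12a 9.84, 9.12 and 6.74. Without replicate 3, 7 genes stood above all EtOH arrays, all but Hsd3b5 and Obp2a, as 10.8% of all probe sets did, and the mean difference from EtOH went from 1.58 to 2.41 for Slco1a1 and from 1.76 to 2.67 for Cyp4a12a. On that array the mean of 10 acute phase proteins was 12.34, against 10.69 and 10.85 on its group mates, and EtOH replicate 1 had 11.97 against 10.65 and 10.58. The part of this in the members' levels was not tested.

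Between EA and RSV in CAR deficient liver 0 of the 9 genes differed (limma, 0 at an unadjusted p under 0.05, and 0 by the rank product). Of all probe sets limma called 0.0%, so no gene passed it in this comparison. The rank product called 32 lower and 11 higher over all probe sets. The interval for Slco1a1 ran from -0.85 to 2.27 and that for Hsd3b5 from -0.48 to 0.08.

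The 9 genes varied together to different degrees among mice on 1 diet. As deviations from the diet mean over the 16 WT arrays, the 36 pairs had a median Pearson's r of 0.24, from -0.27 for Hsd3b5 with Ugt2b1 to 0.87 for Hsd3b5 with Serpina12, and 8 exceeded 0.5. Over the 12 CAR deficient arrays the median was 0.68, from -0.48 for Hsd3b5 with Obp2a to 0.96 for Cyp2d9 with Cyp4a12a, with 23 above 0.5. Without RSV replicate 3 that median was 0.25 and 9 pairs exceeded 0.5, Cyp2d9 with Cyp4a12a still the highest at 0.87, while without EtOH replicate 1 the median was 0.73. The arrays of a pair are the same mice, and the values are descriptions.

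**Figure D4:**
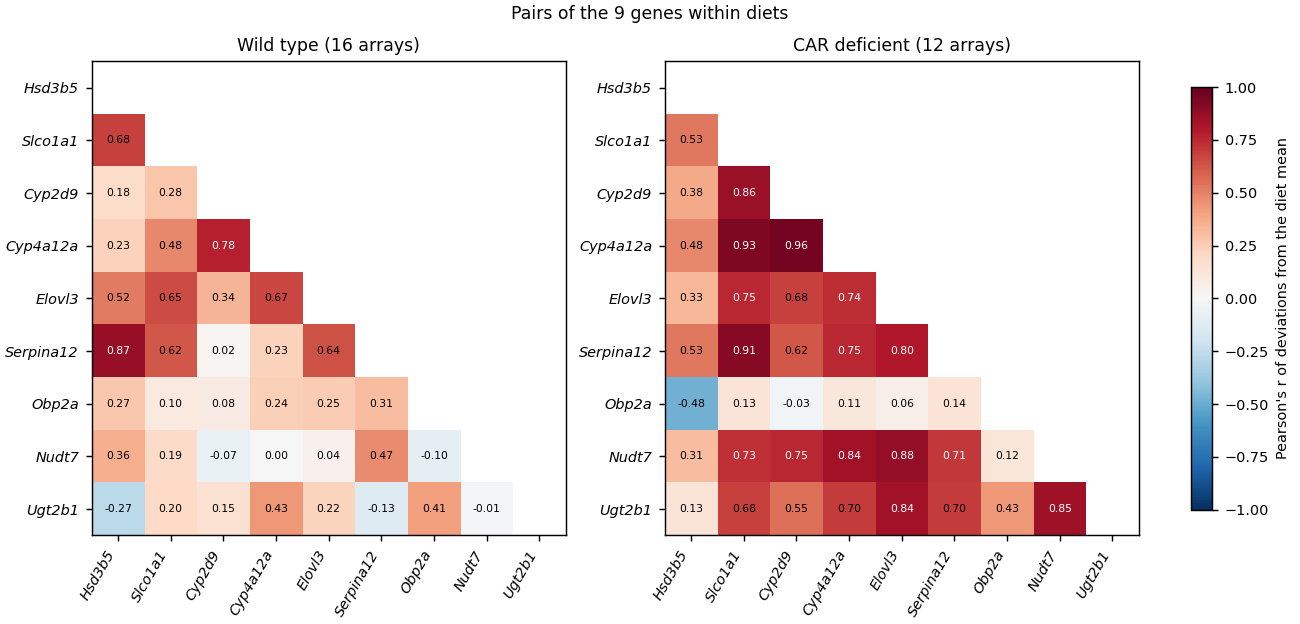
Pearson's r between the lead probe sets of each pair of genes, as deviations from the mean of each diet, over 16 WT and 12 CAR deficient arrays (colour, from -1 to 1, and number in each square). The CAR deficient panel has a median of 0.68, which was 0.25 without RSV replicate 3.

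By a rule set for likeness, the 5 genes whose lead probe set followed the mean of the 9 standardised genes most closely over the 16 WT arrays, of 2890 candidates, were Fam25c (r = 0.91), the complement genes C6 (r = 0.90) and C9 (r = 0.88), the oxysterol hydroxylase Cyp7b1 (r = 0.90) and the efflux pump Abcg2 (r = 0.89). Within diets the same 5 had r between 0.74 and 0.81. Cyp7b1 differed by -1.20 with ethanol in WT liver (limma adjusted p = 0.00686), C6 by -0.72 (adjusted p = 0.0204) and Abcg2 by -0.41 (adjusted p = 0.00959), while Fam25c (-0.75, adjusted p = 0.0876) and C9 (-0.27, adjusted p = 0.131) did not pass. The C6 call was lost without EtOH replicate 1 or control replicate 4. The mean that ranked them rises and falls with diet, so the shared diets enter each r.

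Of 8 other genes of male liver measured, 2 were lower with ethanol in WT liver, Cyp7b1 and C6, and 0 higher. The list median was -0.03, and 3.35% of all probe sets were lower and 2.2% higher. Without CAR, 5 of the 8 stood lower on EtOH without overlap, as 9.76% of all probe sets did, and Cyp7b1 differed by -1.75, C6 by -1.94. The probe sets of Moxd1 and Cspg5 hardly varied in either genotype, nor did that of Mup3 in WT liver. They are counted in the list median and the mean levels. The mean level of the 8 was 9.97 to 10.17 on WT control arrays and 9.66 to 10.00 with ethanol, and 10.15 to 10.44 against 9.23 to 9.66 in CAR deficient liver.

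Of 15 genes of female liver, 3 were higher with ethanol in WT liver (2.2% of all probe sets were) and 0 lower (3.35%), with a list median of 0.20. They were the cytochromes Cyp2b10 (4.05, limma adjusted p = 0.000529), which CAR is also known to induce, and Cyp2b9 (2.85, adjusted p = 0.0153), and Cyp3a44, whose probe set moved by only 0.001. Without CAR, 12 of the 15 stood higher on EtOH without overlap (13 without EtOH replicate 1), as 9.25% of all probe sets did, with a list median of 1.70. The sulfotransferase Sult3a1, flat at 6.01 on all WT arrays, ranged from 5.58 to 5.74 on CAR deficient control arrays and from 9.44 to 12.59 with EtOH, and was named after its values were seen. Of the 15, Cyp2b10, Cyp2b9 and Cyp2b13 (1.90, limma adjusted p = 0.13) had the largest differences with ethanol in WT liver. Cyp3a16, Prom1 and the lead probe set of Cux2 hardly moved there. The mean level of the 15 was 6.60 to 6.86 on WT control and 7.32 to 7.53 on EtOH arrays, and 7.21 to 7.46 and 8.98 to 9.61 in CAR deficient liver. With EA it was 8.33 to 8.66 and with RSV 8.59 to 9.14, replicate 3 having the highest value. Cux2, a female-biased repressor, stood at 7.19 and 7.58 to 7.59 on its lead probe set. On 2 other probe sets, looked at after the values were seen, it ranged from 6.40 to 9.59 and from 5.63 to 8.94 over the CAR deficient arrays.

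**Figure D5:**
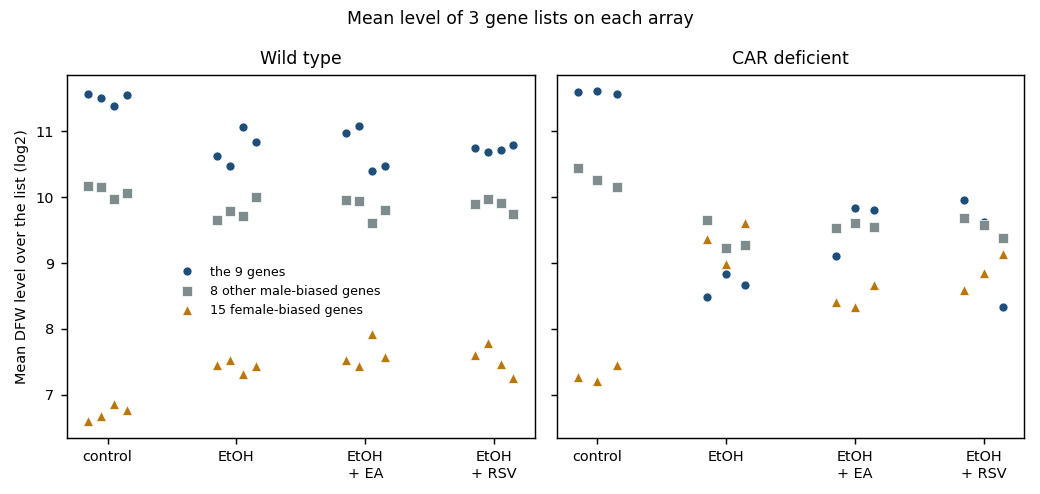
Mean DFW log2 level (vertical axis) on each array of the 9 genes, of 8 other male-biased and of 15 female-biased liver genes, by diet, in WT (4 arrays per diet) and CAR deficient liver (3 per diet). In CAR deficient liver the 9 genes lie at 11.57 to 11.61 on control and 8.48 to 8.83 on EtOH, and the female-biased genes at 7.21 to 7.46 and 8.98 to 9.61.

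Of 15 genes of the growth hormone signal, 1 was lower with ethanol in WT liver (3.35% of all probe sets were) and 0 higher (2.2%). This was Ghr, the growth hormone receptor, at 12.60 to 12.71 on control and 12.37 to 12.48 on EtOH, a difference of -0.25 (SE 0.04, limma adjusted p = 0.00497). Without CAR, Ghr ranged from 13.14 to 13.22 on control and from 12.59 to 12.94 on EtOH. Stat5b (-0.14, adjusted p = 0.385), the repressor Bcl6 (-0.80, adjusted p = 0.541) and the STAT5 targets Socs2 (0.43, adjusted p = 0.697) and Cish (0.74, adjusted p = 0.639) did not pass. The lead probe sets of Jak2, Stat5a, Socs1, Ptpn1 and Sh2b1 hardly varied in WT liver, so the count says little about these genes. Of 9 genes of the IGF axis 2 were lower, Igfbp3, a carrier of IGF-I (-0.50, adjusted p = 0.0142), and Igf1r, whose probe set hardly moved, and Igf1 differed by 0.02 (adjusted p = 0.846).

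Markers of other cell types moved as well, in a WT comparison where 3.35% of all probe sets were lower and 2.2% higher. Kupffer cell markers were lower for 6 of 8 with ethanol in WT liver, among them Adgre1 (-0.44, limma adjusted p = 0.01), C1qa (-0.29, adjusted p = 0.0102) and Vsig4 (-0.26, adjusted p = 0.0151), and their mean level was 8.43 to 8.52 on control and 8.23 to 8.36 on EtOH arrays. Without CAR, 5 of 8 were lower without overlap, as 9.76% of all probe sets were, with means of 8.92 to 9.11 and 8.67 to 8.86. Timd4 is counted in both genotypes, though its probe set hardly moved. Endothelial markers were lower for 1 of 8, Stab2 (-0.45, adjusted p = 0.0195), stellate markers for 0 of 8 and cholangiocyte markers for 1 of 5, Sox9, whose probe set hardly moved, and none were higher. Hepatocyte markers were lower for 1 of 7, Apoa1 (-0.08, adjusted p = 0.0348). Acute phase proteins were lower for 3 of 10, Saa1 (-1.83, adjusted p = 0.000386), Saa2 (-1.51, adjusted p = 0.000296) and Apcs (-0.59, adjusted p = 0.00416). In a fit of only the control and EtOH arrays the calls of Cyp7b1, C6, Abcg2, Cyp2b9, Igfbp3, Apoa1, Adgre1, C1qa, Vsig4 and Stab2 were lost. The part of these changes in the fall of the 9 genes was not tested.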

How the data were processed

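RNA of 28 livers was measured on Affymetrix arrays. The deposited values are log2 levels per probe set, which the authors summarised by Distribution Free Weighting, apart for each genotype. The authors' scanner files were not used here, and no further normalization was applied. Diets and replicate numbers came from the sample titles. The WT titles name their genotype, and those of the CAR deficient arrays name none. All 28 columns of values were mapped to a sample. After 64 Affymetrix controls were left out, 45037 probe sets remained in WT and 45011, those with values on every array, in CAR deficient liver. Of them 34945 name 1 gene, 932 several and 9160 none. Most probe sets hardly vary under this summary, and those with an SD of at most 0.01 over a genotype (1 of the 14 in each genotype, no lead) are compressed.

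The 4 diets of a genotype were fitted together in limma 3.58.1 (R 4.3.3, lmFit and eBayes), and p-values of 7 comparisons were adjusted by Benjamini-Hochberg over every probe set (threshold 0.05). Contrasts of CAR deficient liver that share arrays with the choice of the genes have no test. The 9 members and all lists were chosen with earlier results of these data known. Of each list, up to 3 higher and 3 lower genes of largest difference in WT ethanol against control are named, together with a fixed set of growth hormone genes, and the 5 genes most like the members (SD at least 0.1 over WT arrays). The code was tested on simulated data. The alternatives were quantile normalization, leaving out the dimmer probe sets (mean level under the median), only the 2 groups compared, a replicate block, each array left out in turn, any probe set of a member, and the rank product (50 permutations). Arrays of the same number correlated above 0.1 for every pair only in WT EA against control (0.568, 0.303, 0.157 and 0.277), where the numbers were taken to pair the arrays, although no label says so. The replicate block was fitted over all arrays of a genotype, not over the paired groups alone. The number of arrays limits the precision. Whether mice shared a cage or litter is not given in the sources used here. Figures were made with Python 3.11.15.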

Additional observations from a re-analysis of the deposited data

Results flagged for a closer look

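Ugt2b1 was the gene whose arrays moved in opposite directions in the 2 genotypes. The mean difference of EtOH from control was 0.269 in WT liver, where all 4 EtOH arrays stood above all control arrays, and -0.436 in CAR deficient liver, where all 3 stood below. The difference between the genotypes was not tested, because the CAR deficient side chose the gene. Of 36 WT groups examined (9 genes on 4 diets), 3 held an array far from the others, and chance alone gives about 1 such group in 20. These were Obp2a on EA replicate 3 (6.28, the lowest of its group), Nudt7 on EtOH replicate 5 (13.14, the highest) and Ugt2b1 on RSV replicate 3 (12.53, the lowest).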

How the results depend on the processing

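Of 1007 refitted differences of single genes, 886 kept their direction and side of the threshold, 55 lost and 13 gained a call, and 53 changed sign, all of them differences that had not passed. Sign changes with 1 array left out came in these ranges. Against control in WT liver, Cyp4a12a ran from -0.014 to 0.086 with ethanol, -0.113 to 0.118 with EA and -0.037 to 0.134 with RSV, Cyp2d9 from -0.055 to 0.061 with RSV (-0.008 after quantile normalization), and Igf1 from -0.006 to 0.033 with ethanol. For EA against EtOH, Hsd3b5 ran from -0.588 to 0.489, Slco1a1 from -0.044 to 0.182, Cyp4a12a from -0.155 to 0.075 and Nudt7 from -0.079 to 0.046. For RSV against EtOH, Hsd3b5 ran from -0.157 to 0.61, Slco1a1 from -0.182 to 0.021, Cyp4a12a from -0.08 to 0.092, Nudt7 from -0.089 to 0.026 and Ugt2b1 from -0.017 to 0.103. For EA against RSV in WT liver, Hsd3b5 ran from -0.806 to 0.271, Cyp2d9 from -0.003 to 0.112, Cyp4a12a from -0.163 to 0.083, Elovl3 from -0.271 to 0.402, Serpina12 from -0.029 to 0.245, Nudt7 from -0.021 to 0.048 and Ugt2b1 from -0.053 to 0.08. In CAR deficient liver it was -0.122 to 1.401 for Slco1a1, -0.021 to 1.529 for Cyp4a12a, -0.622 to 0.526 for Elovl3, -0.215 to 1.046 for Serpina12, -0.05 to 0.153 for Obp2a, -0.641 to 0.519 for Nudt7 and -0.108 to 0.199 for Ugt2b1.

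With the replicate block the count of the 9 genes that were lower was 3 in place of 4 for ethanol, where Hsd3b5 (adjusted p = 0.058) and Slco1a1 (0.0548) lost their calls and Nudt7 (0.0305) gained one, and 6 in place of 4 for EA against control, and for EA against EtOH it turned Slco1a1 to -0.005 and Nudt7 to 0.033, and for RSV against EtOH Nudt7 to 0.013. Fitting only the 2 groups compared left 2 lower with ethanol, Hsd3b5 and Serpina12, and 0 higher with RSV against control. Quantile normalization gave 1 gene higher with ethanol, Ugt2b1 (adjusted p = 0.0272), and the rank product also 1. Where limma called 0 in WT liver, the rank product called 2 lower and 3 higher for EA against EtOH, 1 and 1 for RSV against EtOH, and 1 and 2 for EA against RSV. With 1 array left out the number lower was 3 to 5 with ethanol, 4 to 5 with EA and 4 to 5 with RSV against control, and the number higher was 0 to 1 with EA and 0 to 1 with RSV. The causes were not tested. DFW levels below the array median, such as those of Obp2a on EtOH, and 3 arrays a diet limit what can be seen.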
